A study of Mus musculus with 2 samples.

Results

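Keratinocyte-gene cells were selected in the thymic epithelial cell (TEC) libraries as medullary cells that carried transcripts of epidermal differentiation, with limits on transcripts of other TEC subsets. A cell was taken when Krt10, Krtdap and Sbsn together reached 10 UMIs (unique molecular identifiers, counted transcripts) per 10000 UMIs of that cell. In the same unit Aire had to be under 1, Ccl21a under 60, Avil plus Trpm5 (tuft cells) under 5, Psmb11 plus Prss16 (cortical TECs) under 15 and Mki67 plus Top2a (dividing cells) under 4. The sum of Pigr, Prap1, Guca2b and Muc13 (enterocyte-like cells) had to be under 5, and that of Gp2, Ccl6, Ccl9 and Ccl20 (microfold-like cells) under 10. The rule was met by 92 of 8303 kept cells, which are the cells with more than 2000 and fewer than 7500 detected genes and under 15% mitochondrial UMIs. Of the 92, 44 came from 3233 control and 48 from 5070 irradiated kept cells.

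The cells were sorted as EpCAM+CD45-TER119- from thymi of female C57BL/6 mice. One library came from mice that had received a sublethal total body dose of 5.5 Gy of gamma rays at 7 weeks of age, taken 15 days afterwards. The other came from control mice of the same age without irradiation. Each library was a single pool of 3 mice, so no difference between conditions was tested, no p-value is given, and all intervals are 95% intervals for counting error only. The titles of the samples and the names of their files disagreed on which library was irradiated. Conditions here follow the file names, and under the titles every direction given below would be reversed. The libraries shared 17 barcodes, 5 of them among kept cells and 0 among the keratinocyte-gene cells.

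In the epidermis, basal keratinocytes make the keratins Krt5 and Krt14, and cells that leave the basal layer switch to Krt1 and Krt10. Later they make precursors of the cornified envelope, such as filaggrin and involucrin, together with lipid enzymes and protease inhibitors of the skin barrier. In the thymic medulla, some medullary TECs (mTECs) that have passed through the Aire stage take up programmes of peripheral cell types, the keratinocyte programme among them, and such cells are known from the keratinised Hassall's corpuscles.

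The keratinocyte-gene cells held 634652 UMIs in the control and 558957 in the irradiated library. Their median depth was 13511.5 UMIs per control cell (range 4601 to 29893), beside 13412 in all control kept cells. It was 11047 per irradiated cell (5029 to 40133), beside 13003.5. The median number of detected genes was 4023 in the control and 3485 in the irradiated library. The median mitochondrial share was 4.2% in control and 6.91% in irradiated keratinocyte-gene cells, while it was 5.98% in the kept cells of both libraries, and its part in the differences below was not tested. From here on, paired values give the control library first and the irradiated library second, and levels are UMIs per 10000 UMIs.

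First, the selection itself was described. The sum of Krt10, Krtdap and Sbsn reached the threshold in 128 control cells, which was 3.96% of kept cells (exact Clopper-Pearson interval 3.31 to 4.69). It did so in 156 irradiated cells, which was 3.08% (2.62 to 3.59). The limits removed 84 and 108 of these cells. Most removals came from the limit on Ccl21a, with 48 and 62 cells, and from the limit on Aire, with 27 and 31. The keratinocyte-gene cells that remained made up 1.36% (0.991 to 1.82) of control kept cells and 0.947% (0.699 to 1.25) of irradiated ones. The log2 ratio of irradiated over control share was -0.52. Its bounds, from the opposite ends of the intervals, were -1.38 and 0.34 and so included 0. Just inside the threshold lay control cells with sums of 10.4, 10.8 and 11.6 and irradiated cells with 10.1, 10.4 and 10.5. Just outside, among cells that passed the other limits, lay 9.75, 8.01 and 7.94 in the control and 9.54, 9.19 and 9.04 in the irradiated library.

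The sum was spread differently in the libraries. Its median was 40.3 in control cells (range 10.4 to 311, quartiles 17.7 and 109) and 17.8 in irradiated cells (10.1 to 243, quartiles 11.2 and 26.7). After these values had been seen, the cells were divided into a low range of 10 to 20, a middle range of 20 to 50 and a high range of at least 50. The low range held 13 and 28 cells, the middle range 12 and 12, and the high range 19 and 8. High-range cells were thus 43.2% (28.3 to 59.0) of control and 16.7% (7.48 to 30.2) of irradiated keratinocyte-gene cells. As shares of kept cells they were 0.588% (0.354 to 0.916) against 0.158% (0.0681 to 0.311), and the log2 ratio was -1.90, -3.75 to -0.19. The intervals of the shares of kept cells did not overlap, while those of the shares among keratinocyte-gene cells did. The ranges were set on the same cells, so this is a description and not a test.

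**Figure D1:**
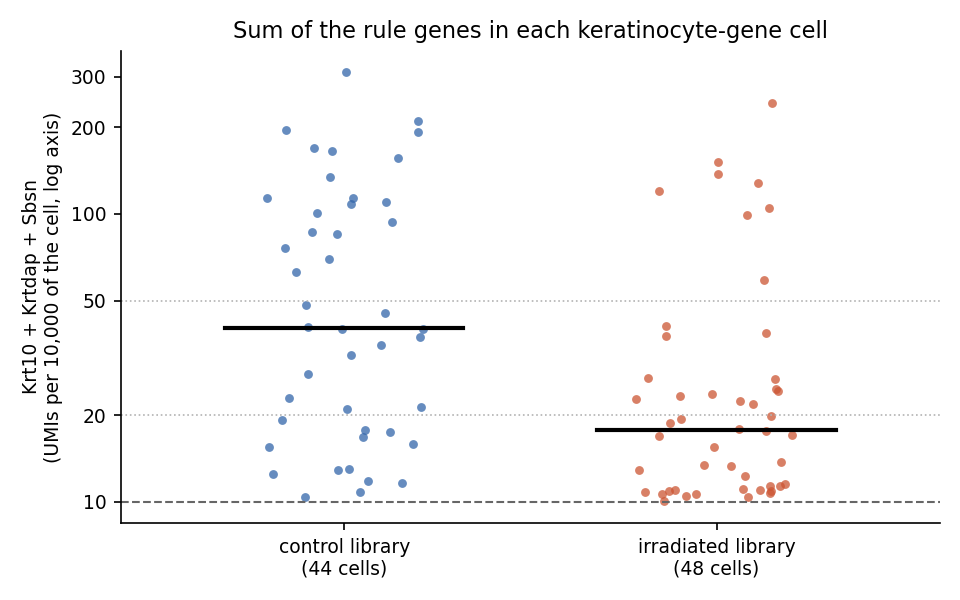
Sum of Krt10, Krtdap and Sbsn in each keratinocyte-gene cell (UMIs per 10000 of the cell, log axis) for 44 control and 48 irradiated cells; black bars are medians (40.3 and 17.8), the dashed line is the threshold of 10 and the dotted lines mark 20 and 50. At or above 50 lie 19 control and 8 irradiated cells.

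The name keratinocyte-like was checked against genes that the rule had not used. Of 44 suprabasal and cornified-envelope genes other than Krt10, Krtdap and Sbsn, each cell thinned at random to 4000 UMIs showed a median of 12 in the control (range 2 to 23) and 5.5 in the irradiated library (1 to 20). At least 5 of them were found in 39 of 44 control and 28 of 48 irradiated cells. Thinning for this count was drawn separately for each set of cells, so counts for the ranges need not add up to these. In Ccl21a cells (Ccl21a at least 60, not Aire or dividing cells) the medians were 3 and 2 genes. At least 5 were found in 81 of 866 and 79 of 1420 cells (2 shallower irradiated cells were left out). All Ccl21a, Aire, enterocyte-gene, microfold-gene, tuft-gene and cortical-gene cells used for comparison had a sum of Krt10, Krtdap and Sbsn under 10. They were thus low in the genes of the rule by choice. High-range cells showed a median of 16 genes in each library, with ranges of 9 to 23 and 3 to 22. These come from another draw than the ranges of all keratinocyte-gene cells above, so their highest value can be larger. In the middle range the medians were 10.5 and 8.5, and in the low range 5 and 4. Enterocyte-gene and microfold-gene cells, chosen by their own gene sums, showed a median of 4 in each library. At least 5 genes were found in 43 of 103 and 32 of 97 enterocyte-gene cells. They were found in 32 of 79 and 29 of 76 microfold-gene cells. Cells over the threshold that the limit on Ccl21a removed showed a median of 4 in each library, with at least 5 in 17 of 48 and 19 of 62. For the limit on Aire the medians were 4 and 3, with at least 5 in 11 of 27 and 8 of 31. By these markers the name held in the high range, while in the low range 8 of 13 control and 12 of 28 irradiated cells showed at least 5 of the genes, which in the irradiated library was near the share in the enterocyte-gene and microfold-gene cells. The 92 cells are therefore called by the genes of the rule and not as a uniform cell type. Pigr, given as a marker of these cells, was capped by the rule and had 6 UMIs in control and 2 in irradiated cells. Whether the cells had passed through an Aire stage was not measured, since the rule itself kept Aire low.

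**Figure D2:**
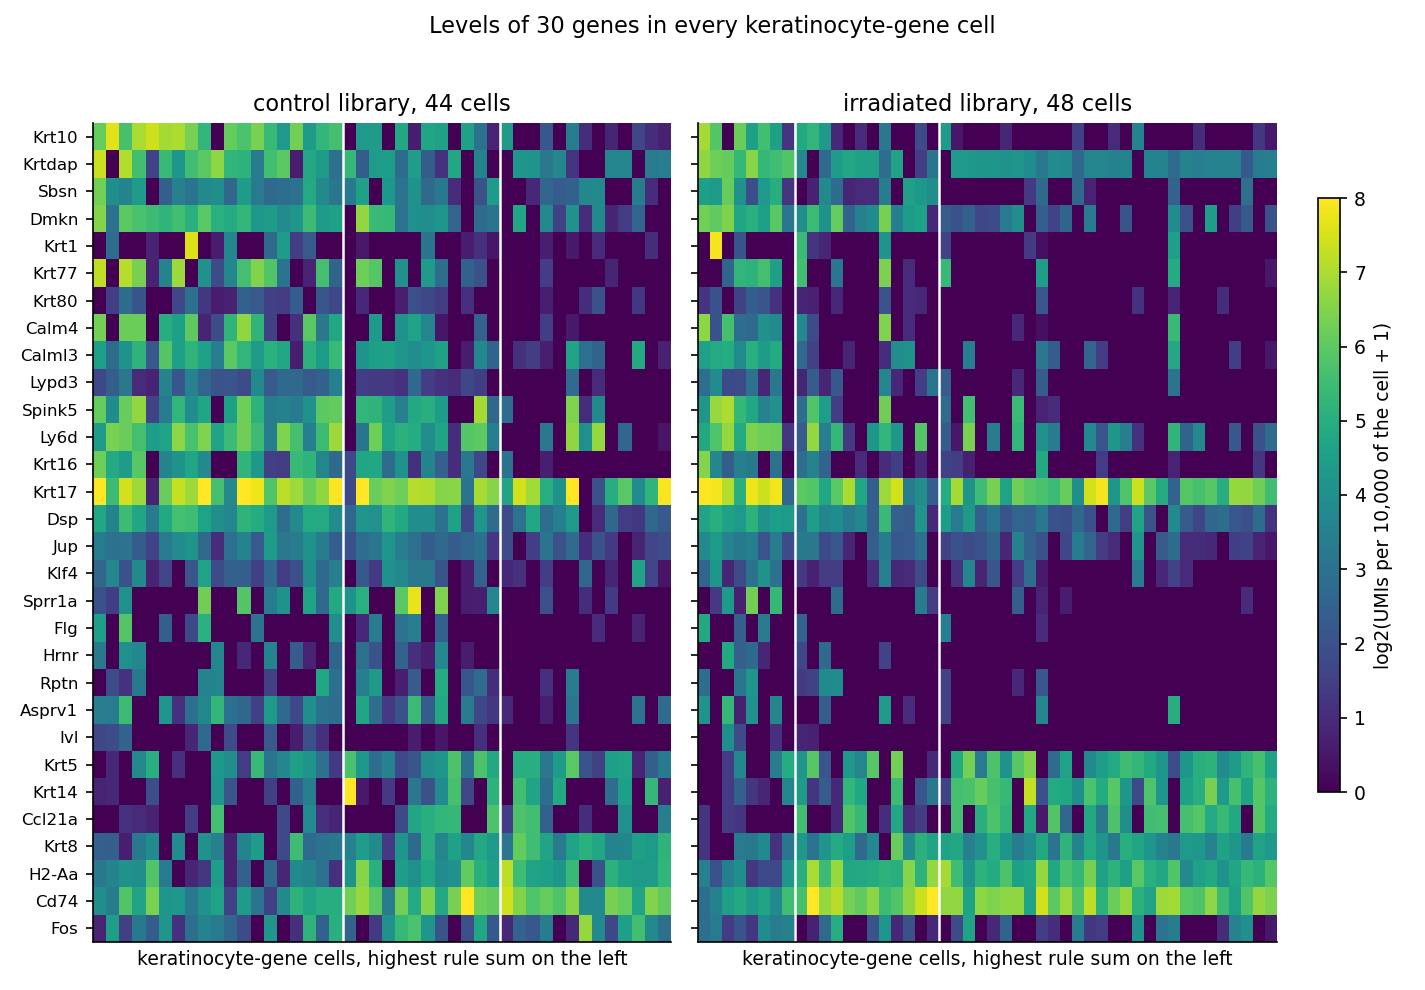
Levels of 30 genes (rows, colour on a log2 scale of UMIs per 10000 of the cell) in every keratinocyte-gene cell (columns), ordered by the rule sum from left to right; white lines mark sums of 50 and 20. Epidermal genes such as Dmkn, Krt77, Calm4 and Spink5 are mostly at the left of both panels, and the irradiated panel has 28 cells in the low range at its right against 13 in the control panel.

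Summed markers of cell types other than TECs were low, except that fibroblast genes lay above their level in the other kept cells. The sum of 14 thymocyte genes was at 0.205 against 0.340 in the keratinocyte-gene cells, beside 2.0 and 2.51 in the other kept cells. Trbc2 was the most abundant of them, and Ptprc, Cd3d, Cd8a, Cd8b1, Rag1, Rag2 and Themis had 0 UMIs. For a gene with 0 UMIs, 3 counts would correspond to a level of 0.0473 in the control and 0.0537 in the irradiated cells. Fibroblast genes summed to 4.33 against 2.77, beside 3.23 and 1.91 in other cells, with Dcn the most abundant and Col1a1 at 0. These genes were at 0 in 35 of 44 and 24 of 48 cells, and single cells reached 94.4 and 19.8. Lists for endothelial cells (0.0473 against 0), erythroid cells (0.142 against 0.0358) and myeloid or B cells (1.01 against 1.5, mostly Lyz2) were near 0.

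Among lists of other TEC subsets, tuft cell genes summed to 1.40 against 1.31, cell cycle genes to 2.05 against 2.68, microfold genes to 10.7 against 13.3 (Anxa5 the most abundant) and cortical genes to 9.5 against 10.2 (mostly Ctsl, beside 43.2 and 60.7 in other cells), all of them with members that the rule limits. Enterocyte genes summed to 28.1 against 7.41 and were led by Reg3g, an antimicrobial lectin, at 27.3 against 3.97. That sum, beside 15.9 and 11.2 in other cells, rested on few cells, since the list was at 0 in 21 of 44 and 22 of 48 cells and the highest cells reached 564 and 117. Its median per cell was 0.403 against 0.773 and so lay in the opposite order to the sum. Secretory cell genes summed to 8.18 against 2.45, led by Bpifa1, beside 2.29 and 2.05 in other cells. They were at 0 in 34 and 40 cells, and the highest cells reached 102 and 45.1. Neuroendocrine (0.488 against 1.41), ciliated (1.04 against 0.572), muscle (0.110 against 0.0358) and ionocyte (0.457 against 0.215) genes were low in both libraries. Genes shared by all TECs summed to 51.4 against 57.6, beside 39.3 and 41.1 in other cells.

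The genes of the rule were not carried alike by the libraries. Krt10, the type I keratin of suprabasal cells, was found in 35 of 44 control cells, with a median of 19.7 and a maximum of 196. It was found in 23 of 48 irradiated cells, with a median of 0 and a maximum of 121. Cortical-gene cells (Psmb11 plus Prss16 at least 15, not dividing, sum of Krt10, Krtdap and Sbsn under 10) were taken for comparison. They had a Krt10 UMI in 46.6% of 133 control and 50.4% of 347 irradiated cells, at median depths of 19268 and 17477 UMIs, and a Krtdap UMI in 4.51% and 2.02%. Whether these Krt10 UMIs were free RNA or low expression was not tested. After thinning to 4000 UMIs, 68.2% (52.4 to 81.4) of control keratinocyte-gene cells had a Krt10 UMI, against 12.8% (7.63 to 19.7) of cortical-gene cells. In the irradiated library the shares were 31.2% (18.7 to 46.3) and 16.7% (12.9 to 21.1). Krt10 was one of the genes that chose the cells, so these shares describe how often it was among the genes that carried a cell over the threshold, and nothing is read from them against the cortical-gene cells.

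Krtdap, a small secreted protein of differentiating keratinocytes, had almost the same median in both libraries, at 11.9 in control cells (0 to 165) and 11.5 in irradiated cells (0 to 100.2). Sbsn, suprabasin, had medians of 7.34 (0 to 77.4) and 0.332 (0 to 69.3) and was at 0 in 8 and 24 cells. All 3 genes were detected together in 25 and 13 cells. Krtdap alone was detected in 2 and 15 cells. In these 15 irradiated cells Krt5 was at 35.7, Krt14 at 38.1 and Ccl21a at 27.4, while Krtdap was at 14.5. Set beside them, the 62 irradiated cells that the limit on Ccl21a had removed had Krt5 at 25.4, Krt14 at 42.2, Krtdap at 15.5 and Krt10 at 0.237. The suprabasal list without the genes of the rule summed to 46.1 in the 15 cells and to 28.9 in the removed cells, and of the 44 genes counted after thinning the medians were 5 and 4. The cells that carried Krtdap alone were set apart after their unequal number in the libraries had been seen, and leaving out 2 control and 15 irradiated cells lowers the ratio of shares by that choice itself. Without them the shares of kept cells were 1.30% against 0.651% (log2 ratio -1.0, -1.97 to -0.04).

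Sbsn, Dmkn and Krtdap lie side by side on chromosome 7 of GRCm38, all on the plus strand, with Sbsn at chr7:30751471-30756134, Dmkn at chr7:30763756-30781063 and Krtdap at chr7:30787896-30791097. Dmkn, dermokine, was not used by the rule. It was at 23.8 against 15.3 in keratinocyte-gene cells, beside 0.575 and 0.483 in the other kept cells. It was found in 38 of 44 control cells (median 16.3, maximum 104) and in 38 of 48 irradiated cells (median 4.86, maximum 86.7). After thinning, 84.1% of control and 75% of irradiated keratinocyte-gene cells had a Dmkn UMI, where 1.5% and 0.865% of cortical-gene cells did. Of 16 protein-coding genes within 150 kb of Krtdap, 10 had any UMI in the keratinocyte-gene cells, and the 3 that were at least 2-fold over the other kept cells in both libraries were Sbsn, Dmkn and Krtdap. Sbsn and Krtdap were used to choose the cells, which fixes their excess, so of these 3 genes the values of Dmkn alone were measured apart from the rule. The genes next to them, Gapdhs and Ffar2, had 0 UMIs. Tmem147 (log2 ratio to other cells -0.42 and 0.12) and Rbm42 (0.45 and 0.06) were detected and lay within 2-fold of other cells.

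**Figure D3:**
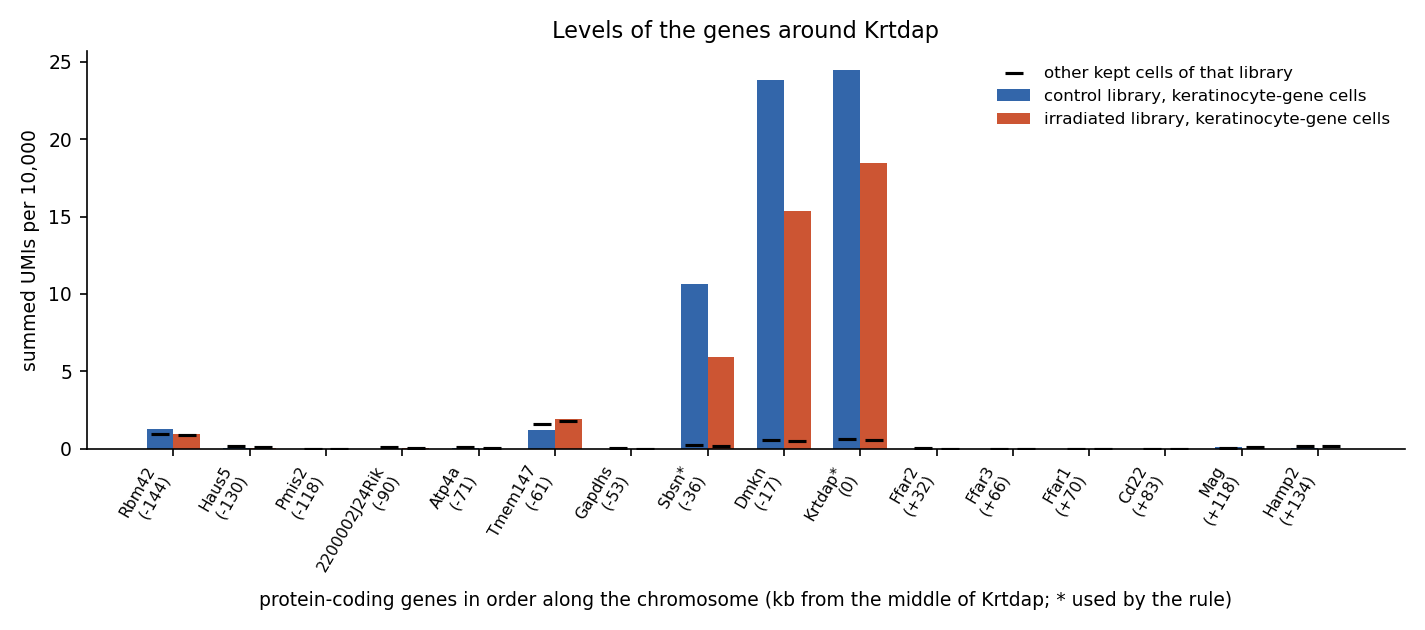
Levels of the 16 protein-coding genes around Krtdap (summed UMIs per 10000; bars, keratinocyte-gene cells of each library; dashes, other kept cells of that library), in chromosome order. Dmkn stands out beside Sbsn and Krtdap, which are marked with an asterisk because the rule used them and are therefore high by choice, and Gapdhs and Ffar2 on either side are at 0.

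For Krtdap, Sbsn and Krt10, the genes of the rule, and for Dmkn, the gene that ranked most like their sum across cells, the 250 bases before the start are shown from RefSeq (GRCm38.p6), read 5′ to 3′ on the strand of the gene. Capitals mark the letters TGANTCA, searched as a loose AP-1 pattern with any base at N, and the letters TATAAA. Both strands were searched for these and for the grainyhead-like letters AACNGGTT, and no matches overlapped. The windows are chr7:30787655-30787904 for Krtdap, chr7:30751221-30751470 for Sbsn, chr7:30763506-30763755 for Dmkn (the first of 3 starts listed) and chr11:99389365-99389614 on the minus strand for Krt10. The Krtdap window ends inside the gene as placed above by GENCODE, since RefSeq places its start further along.
Krtdap: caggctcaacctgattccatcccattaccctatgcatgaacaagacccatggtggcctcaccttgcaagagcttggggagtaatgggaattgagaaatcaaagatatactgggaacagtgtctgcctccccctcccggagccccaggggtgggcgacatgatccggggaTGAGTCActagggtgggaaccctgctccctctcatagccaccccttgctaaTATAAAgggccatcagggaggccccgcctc
Sbsn: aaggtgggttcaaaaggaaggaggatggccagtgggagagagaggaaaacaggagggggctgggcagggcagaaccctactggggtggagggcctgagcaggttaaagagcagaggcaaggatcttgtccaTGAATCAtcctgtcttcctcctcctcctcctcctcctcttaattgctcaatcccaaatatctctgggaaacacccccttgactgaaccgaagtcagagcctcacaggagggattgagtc
Dmkn: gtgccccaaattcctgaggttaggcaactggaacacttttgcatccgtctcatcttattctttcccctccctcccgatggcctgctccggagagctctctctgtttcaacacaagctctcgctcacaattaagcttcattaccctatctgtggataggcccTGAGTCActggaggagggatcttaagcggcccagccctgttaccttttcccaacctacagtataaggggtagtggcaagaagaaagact
Krt10: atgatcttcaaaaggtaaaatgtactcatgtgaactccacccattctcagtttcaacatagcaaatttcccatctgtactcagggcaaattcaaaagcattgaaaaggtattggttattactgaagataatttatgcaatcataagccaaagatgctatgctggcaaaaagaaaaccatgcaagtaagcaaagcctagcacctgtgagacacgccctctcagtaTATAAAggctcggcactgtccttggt

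TGANTCA was found once in each of the chromosome 7 windows, as TGAGTCA beginning 81 bases before the Krtdap start, TGAATCA beginning 119 bases before Sbsn and TGAGTCA beginning 89 bases before Dmkn. It was not found before Krt10. Of 32851 promoter windows of this length in the table, 6.75% held it. So did 4 of the 17 leading genes described next that had a window, Krtdap and Sbsn among them. TATAAA was found before Krtdap and Krt10, in 12.4% of all windows and in 4 of the 17, Krtdap and Krt10 among them. Krtdap, Sbsn, Dmkn and Krt10 are themselves leading genes, so the counts over the 17 are not separate from the windows shown. AACNGGTT was found in none of these 4 windows, in 1.79% of all and in 0 of the 17. A match describes letters and not a bound site.

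The 20 leading genes of the keratinocyte-gene cells were those with the highest level over the other kept cells among genes found in at least 25% of cells of each library. The cells had been chosen by expression, so these ratios are a description with no test. The ranking was headed by Calm4, a calmodulin-like gene of skin, at 17.2 against 6.28 in keratinocyte-gene cells and 0.118 and 0.102 in other cells (it overlaps Gm40655 on the same strand, so its count is uncertain). Psapl1 was at 2.36 against 0.483 beside 0.0226 and 0.0143. Krt77, a type II keratin of skin, was at 20.5 against 8.39 beside 0.237 and 0.199. Dapl1, a gene known from differentiating epithelium, was at 51.2 against 16.8 beside 1.52 and 0.972. The others, besides the genes of the rule and Dmkn, were Tmem45a, Spink5, Lypd3, Calml3, Krt80, Lgals7, Efna3, Lipm, Sdr9c7, Pla2g2f, Clic3 and Pdzk1ip1. Lypd3 is a surface protein of suprabasal cells, Lipm a lipase of the epidermis and Sdr9c7 an enzyme of barrier lipid synthesis. Over all 2115 genes with at least 100 UMIs in the keratinocyte-gene cells, 241 (11.4%) were at least 2-fold higher than in other kept cells in both libraries and 22 (1.04%) at least 2-fold lower. In the control library alone these shares were 17.0% and 4.35%, and in the irradiated library alone 13.3% and 1.99%.

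Keratin genes were surveyed as a family. Of 27 type I keratins on chromosome 11, 20 were detected, 6 had at least 100 UMIs and 4 of these were at least 2-fold over other cells in both libraries, namely Krt10 (used by the rule), Krt23, Krt16 and Krt17. Of 26 genes on chromosome 15 (type II keratins and Krt18), 24 were detected, 10 had at least 100 UMIs and 6 were at least 2-fold over other cells in both, namely Krt80, Krt5, Krt1, Krt77, Krt79 and Krt78. Krt8 and Krt18, keratins of simple epithelia and of TECs in general, were near the level of other cells, with log2 ratios of -0.30 and -0.19 for Krt8 and -0.34 and -0.15 for Krt18. Krt17, a keratin of activated and appendage keratinocytes, was at 127 against 75.7 beside 28.6 and 33.3 in other cells. Of 44 genes of the epidermal differentiation complex other than S100a genes, 20 were detected and 5 had at least 100 UMIs (Sprr1a, Flg, Hrnr, Rptn and Tchh), all 5 at least 2-fold over other cells in both libraries. Of the 8 S100a genes with at least 100 UMIs, 0 were.

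Next, levels in irradiated keratinocyte-gene cells were compared with those in control ones, as summed UMIs per 10000 summed UMIs. In such sums, fewer cells with a transcript and less of it per cell are not separated. Of the 2115 genes, 133 (6.29%) were at least 2-fold lower in the irradiated cells and 70 (3.31%) at least 2-fold higher, so 203 (9.60%) passed 2-fold in either direction, and the exact Poisson intervals of the levels were apart for 610 (28.8%). The median log2 ratio of irradiated over control was -0.04 (quartiles -0.36 and 0.27). Because more irradiated cells lay in the low range, results are also given by range. There, the shares of genes at least 2-fold lower and higher were 5.73% and 2.45% of 489 genes in the high range, 9.21% and 5.26% of 456 in the middle range, and 6.01% and 5.59% of 716 in the low range. Lists are given by their counts of genes with at least 100 UMIs, beside these shares.

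Of the suprabasal genes that the rule had not used, a minority were at least 2-fold lower in the irradiated cells and the summed level was lower over all ranges. Without the 3 genes of the rule, the 19 genes of the list summed to 171 (168 to 174) against 101 (98.1 to 103), beside 13.5 and 12.4 in other kept cells. The log2 ratio of irradiated over control was -0.76, -0.83 to -0.70. Of 13 genes with at least 100 UMIs, 3 (Krt77, Krt80 and Calml3) were at least 2-fold lower and 0 at least 2-fold higher, and the median log2 ratio was -0.80. Krt77 was at 20.5 against 8.39 (-1.28, -1.5 to -1.08), with a median of 1.26 (0 to 148) per control cell and 0 (0 to 84.7) per irradiated cell, so the libraries overlapped. Calml3, a calmodulin-like protein of stratified epithelium, was at 16.5 against 5.58 (-1.57, -1.82 to -1.32), with medians of 16.3 (0 to 62.3) and 0 (0 to 32.5) per cell. Lgals7, galectin-7, went the other way, at 4.13 against 5.40 (0.39, 0.05 to 0.73). It was found in 16 and 14 cells, and 3 cells of each library held 72.9% and 70.9% of its UMIs. Krt1, the type II partner of Krt10, was at 4.96 against 4.79 (-0.05, -0.39 to 0.29), and 1 cell of each library held 73.0% and 57.8% of its UMIs.

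The ranges were cut on Krt10, Krtdap and Sbsn after the data had been seen, and other suprabasal genes ranked with that sum across cells, so values within a range are not independent of the choice of range. They are given as a description, without those 3 genes. The other 19 genes summed to 262 against 259 in the high range (log2 ratio -0.02, -0.11 to 0.08), where the medians per cell were 277 against 260.4. They summed to 133 against 127 in the middle range (-0.06, -0.19 to 0.06) and to 75.5 against 54.4 in the low range (-0.47, -0.62 to -0.33). The medians per cell were 130.5 against 72.6 in the middle and 30.8 against 29.1 in the low range, so the low-range difference in the sum was smaller in the typical cell, and the middle-range difference larger. Within the high range, Krt77 was lower in the irradiated cells, at 38.1 against 21.6 (-0.81, -1.14 to -0.51), and Dmkn higher, at 37.4 against 45.9 (0.29, 0.05 to 0.53). Lgals7 was higher there too, at 8.57 against 20 (1.23, 0.80 to 1.65). Calml3 was at 26.5 against 21.6 (-0.29, -0.63 to 0.03), so it was not 2-fold lower there. Ly6d, a surface protein of stratified epithelium, was at 57.1 against 57.4. These high-range values rest on 8 irradiated cells. In the low range Krt77 lay the other way, at 0.233 against 4.38 (4.07, 2.63 to 6.34). It was at 0 there in 11 of 13 control and 24 of 28 irradiated cells, with a highest irradiated cell of 39.8. The summed level of Krt1 was higher in irradiated cells of each range, unlike its level over all ranges. It was at 11.1 against 20.7 in the high range (0.90, 0.50 to 1.29). Of its 293 control and 160 irradiated UMIs there, 230 and 155 came from a single cell of each library. The direction in the high range thus rests on these cells. Krt1 was at 0.902 against 5.26 in the middle range, on 18 and 73 UMIs. It was at 0.233 against 1.02 in the low range, on 4 and 35 UMIs. In the middle and low ranges its UMIs were under the minimum set for comparing genes. The median of Krt1 per cell was 0 in every range of both libraries.

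**Figure D4:**
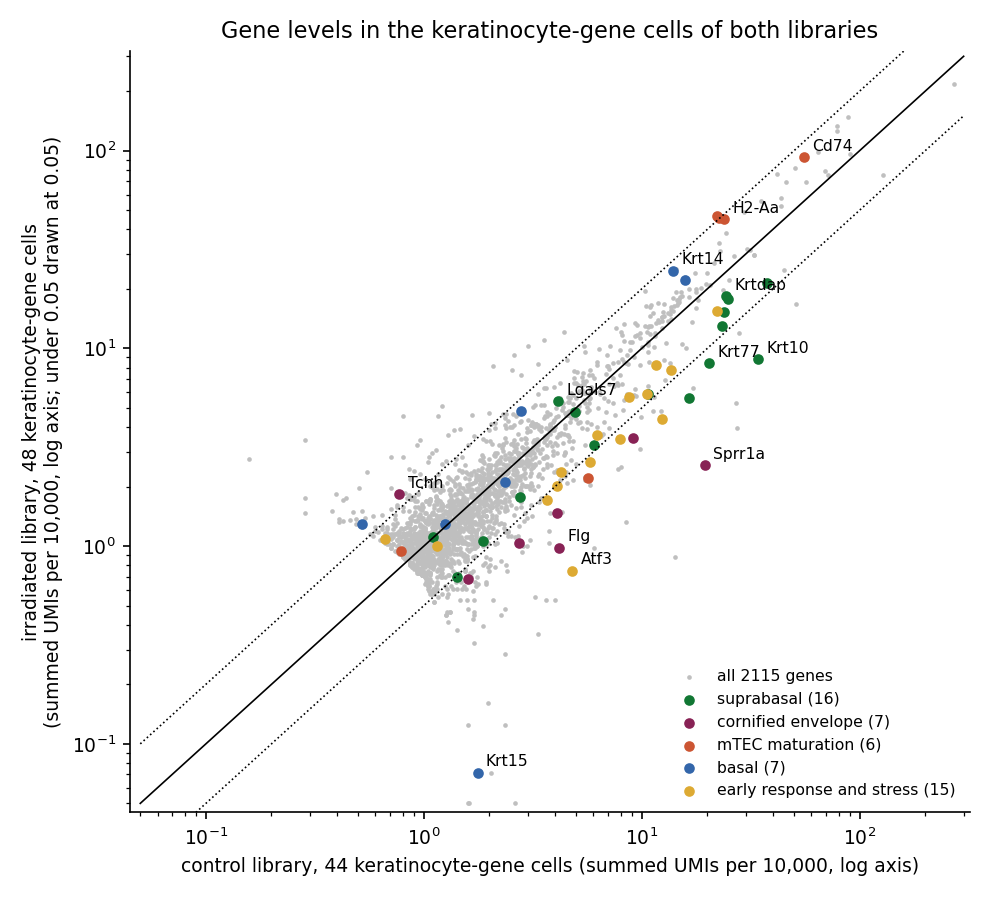
Level of each of 2115 genes in keratinocyte-gene cells of the control (x) and irradiated (y) library, as summed UMIs per 10000 on log axes, with levels under 0.05 drawn at 0.05; coloured points are gene lists, the solid line marks equal levels and the dotted lines 2-fold. Of the 13 suprabasal genes that the rule did not use, 3 lie below the lower dotted line, and so do 6 of 7 cornified-envelope genes; Krt10, Krtdap and Sbsn are coloured too but were used to choose the cells.

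Cornified-envelope genes differed more. Of 25 genes, 23 were detected (not Sprr2a1 and Sprr3) and 7 had at least 100 UMIs, of which 6 were at least 2-fold lower in the irradiated cells (Flg, Hrnr, Rptn, Sprr1a, Cnfn and Asprv1) and 1, Tchh, at least 2-fold higher. The median log2 ratio was -1.39, and the summed level was 47.5 (45.8 to 49.2) against 15.5 (14.5 to 16.5), beside 3.46 and 2.57 in other cells. Sprr1a, a small proline-rich envelope precursor, was at 19.5 against 2.56 (-2.93, -3.26 to -2.62) and was found in 21 and 12 cells. Flg, filaggrin, was at 4.18 against 0.984 (-2.07, -2.67 to -1.53) and was found in 14 and 6 cells. Both genes were thus carried by a minority of cells in each library. Asprv1, the protease that processes filaggrin, was at 9.11 against 3.54 (-1.36, -1.69 to -1.04). Tchh, trichohyalin, was at 0.772 against 1.82, but 66.7% of its irradiated UMIs came from 1 cell, and without the cell with most UMIs of each library its log2 ratio was -0.041. Lor, loricrin, was found in 3 control cells and 1 irradiated cell.

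By range, the cornified list was at 57.1 against 62.8 in high-range cells (0.14, -0.07 to 0.34), at 69.2 against 14.3 in the middle range (-2.27, -2.56 to -1.99) and at 7.63 against 5.25 in the low range (-0.54, -1.01 to -0.07). In the high range Sprr1a was at 15.4 against 14.6 (-0.08, -0.50 to 0.33), Asprv1 at 11 against 10.6 (-0.05, -0.55 to 0.43) and Hrnr, hornerin, at 4.33 against 5.94 (0.47, -0.26 to 1.15). None of these 3 had an interval clear of 0 there, while Flg was at 8.16 against 5.17 (-0.64, -1.34 to -0.01). Of the 6 genes with at least 100 UMIs there, Tchh was the one at least 2-fold apart, at 1.06 against 9.43 (3.13, 2.27 to 4.07). Of its 73 irradiated UMIs in the high range, 68 came from 1 cell. Without Tchh the high-range sum was 56.0 against 53.4 (-0.07, -0.29 to 0.14). The middle-range sums lay further apart than the medians of the list per cell, which were 17.0 (highest 276) against 7.97 (highest 42.3) there. Sprr1a was most abundant in the middle range of the control library, at 41.4 against 1.44, and over all ranges 1 cell held 30.2% and 3 cells 58.5% of its control UMIs.

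Of 16 barrier genes, 5 had at least 100 UMIs, and 2 of them (Spink5 and Klk7) were at least 2-fold lower and 0 at least 2-fold higher. Spink5, an inhibitor of epidermal proteases, was at 27.9 against 12 (-1.22, -1.40 to -1.05), with a median of 11.7 (0 to 120.4) per control cell and 0 (0 to 127) per irradiated cell, and it was at 0 in 13 of 44 and 31 of 48 cells. Klk7, a protease that it inhibits, was at 1.69 against 0.429 (-1.95, -2.89 to -1.11). Elovl4, which lengthens the fatty acids of barrier lipids, was at 2.73 against 1.81 over all ranges (-0.59, -1.10 to -0.09), but in the high range it was higher in irradiated cells, at 3.98 against 8.40 (1.08, 0.43 to 1.72). Fabp5, a fatty-acid binding protein abundant in epidermis, was higher in the irradiated cells, at 78.5 against 126 (0.68, 0.61 to 0.76), and was also higher in the other kept cells of that library, at 47.3 and 63.1. The list's sum, 115 against 143, is mostly Fabp5 and so lies opposite to its median log2 ratio of -0.59. Its median per cell, 103 (highest 337) against 50.4 (highest 632), also lay opposite to the sum. High-range cells had Spink5 at 39.9 against 44.7 (0.17, -0.08 to 0.41) and Fabp5 at 95.4 against 128 (0.42, 0.28 to 0.57). Klk7 was lower in irradiated cells there too, at 3.98 against 1.03 (-1.87, -3.43 to -0.68), with 105 and 8 UMIs. Spink5 was lower in irradiated cells of the middle range, at 25.5 against 13.9 (-0.87, -1.21 to -0.54). It was also lower in those of the low range, at 12.4 against 3.79 (-1.71, -2.16 to -1.26). There it was at 0 in 9 of 13 and 23 of 28 cells, with a highest control cell of 87.6. The summed level of Fabp5 was higher in the middle range, at 73.2 against 226 (1.62, 1.5 to 1.75). It was also higher in the low range, at 58.6 against 85.1 (0.54, 0.40 to 0.68). In the middle range the medians of the barrier list per cell lay opposite to its sum, at 98.6 (highest 327) against 75.7 (highest 632). They followed the sums in the high range, at 120 against 156, and in the low range, at 16.9 against 41.2.

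Desmosome genes were above other cells and differed less between libraries. The sum was 36.1 against 27.3 beside 11.1 and 11.2 in other cells, and 0 of 7 genes with at least 100 UMIs passed 2-fold. Dsp, desmoplakin, was at 15.9 against 10.1 (-0.66, -0.87 to -0.45) and Jup, plakoglobin, at 5.83 against 4.17 (-0.48, -0.82 to -0.15). The list was at 47.3 against 49.5 in the high, 34.2 against 29.7 in the middle and 21.2 against 21.3 in the low range. Of 3 activated-keratinocyte genes with at least 100 UMIs, 2 (Krt16 and S100a8) were at least 2-fold lower and 0 at least 2-fold higher. Krt17 was lower in the irradiated cells (-0.75, -0.83 to -0.68). Krt16, a keratin of stressed epidermis, was at 12.3 against 4.81 over all ranges (-1.35, -1.63 to -1.07). S100a8 was at 0.683 against 4.52 in the high range (2.71, 1.55 to 3.96), on 18 and 35 UMIs, under the minimum of 100. In the low range it lay the other way, at 6.06 against 0.0584 (-6.38, -10.0 to -4.55), on 104 and 2 UMIs. Krt16 was lower in irradiated cells of the high range, at 23.1 against 14.2 (-0.70, -1.10 to -0.32), and of the middle range, at 7.97 against 2.59 (-1.60, -2.36 to -0.92), and higher in those of the low range, at 0.524 against 3.59 (2.70, 1.58 to 4.16), where it was at 0 in 11 of 13 and 21 of 28 cells. Krt17 was at 156 against 156 in the high range and at 105 against 57.0 in the middle range (-0.88, -1.04 to -0.72). In the low range it was at 109 against 65.1 (-0.74, -0.87 to -0.62). The activated list, in which Krt17 was most abundant, had medians per cell of 60.9 (highest 288) against 58.6 (highest 234) there. The low-range difference was thus smaller in the typical cell.

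Of 31 regulators of keratinocyte fate, 16 had at least 100 UMIs, 4 of which (Klf4, Klf5, Cebpb and Elf3) were at least 2-fold lower in the irradiated cells and 0 at least 2-fold higher, and the median log2 ratio was -0.52. Klf4, a factor of barrier formation, was at 4.84 against 2.16 (-1.16, -1.59 to -0.74), and it was also lower in the other kept cells of the irradiated library, at 1.05 and 0.483. It was at 6.64 against 6.72 in the high range, at 4.31 against 1.66 in the middle range (-1.36, -2.34 to -0.47) and at 2.68 against 1.34 in the low range (-1.0, -1.86 to -0.13). Trp63, the master factor of stratified epithelium, was at 2.35 against 2.11 (-0.15, -0.66 to 0.35). Grhl1, a grainyhead-like factor of suprabasal cells, was at 1.69 against 1.07 (-0.65, -1.31 to 0.00), beside 0.126 and 0.102 in other cells. Genes of the Notch pathway, which drives keratinocytes out of the basal layer, were present. The receptor gene Notch1 was at 1.70 against 1.77 beside 0.597 and 0.730 in other cells, the ligand gene Jag1 at 1.65 against 1.43 beside 0.380 and 0.339, and the target Hes1 at 2.10 against 1.31 beside 0.395 and 0.405. Of these 3, Hes1 had an interval below 0 between libraries (-0.68, -1.28 to -0.10).

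Summed over all ranges, the basal list was at 40.7 against 59.1. The list of Ccl21a-expressing mTECs, without Ccl21a, which the rule limits, was at 36.5 against 61.9 (0.76, 0.65 to 0.87), beside 26.6 and 30.1 in other cells, and it shares Krt5, Krt14 and Itga6 with the basal list. In both lists few genes passed 2-fold. Of 7 basal genes with at least 100 UMIs, 1 (Lama3) was at least 2-fold higher and 1 (Krt15, with 77.7% of control UMIs in 1 cell) at least 2-fold lower, and the median log2 ratio was 0.49. Krt14 was at 13.9 against 24.7 (0.83, 0.66 to 1.01), with a median of 0.808 (0 to 269) per control cell and 18.5 (0 to 157) per irradiated cell, so the libraries overlapped. Krt5 was at 15.8 against 22.2 (0.49, 0.32 to 0.66) and Ccl21a, the chemokine capped by the rule, at 10.3 against 19.4. Ccl11, another chemokine and on the list of Ccl21a-expressing mTECs, was at 2.08 against 8.10 (1.96, 1.58 to 2.35). Of 5 genes of the Ccl21a list with at least 100 UMIs, Ccl21a left out, 1 (Ccl11) was at least 2-fold higher and 0 at least 2-fold lower, and the median log2 ratio was 0.78. The higher values lay in the low range, where this list without Ccl21a was at 33.8 against 80.7 (1.25, 1.08 to 1.43), while it was lower in irradiated cells of the middle range, at 67.5 against 44.4 (-0.61, -0.80 to -0.41), and of the high range, at 14.9 against 9.82 (-0.59, -1.09 to -0.13). In the low range Krt14 was at 9.62 against 34.7 (1.85, 1.55 to 2.16). The sum of the basal list was also lower in irradiated cells of the middle range, at 68.3 against 44.1, where 1 control cell had Krt14 at 269. Its medians per cell lay the other way there, at 26.7 (highest 356) against 34.8 (highest 137). In the high range Krt14 was at 2.54 against 2.58, and with a threshold of 20 in place of 10 the log2 ratio of Ccl11 was -0.17.

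H2-Aa, an MHC class II chain, was at 23.8 against 44.9 (0.91, 0.79 to 1.04), beside 64.1 and 63.9 in other kept cells. Its values per cell overlapped, with a median of 15.7 (0 to 145) in the control and 30.4 (1.41 to 127) in the irradiated library. The invariant chain Cd74 was at 55.6 against 92.5 (0.73, 0.65 to 0.82) beside 165 and 158. Of the 6 genes of the mTEC maturation list with at least 100 UMIs, H2-Ab1 and H2-Eb1 were at least 2-fold higher and Fezf2, a regulator of self-antigen genes, at least 2-fold lower, at 5.66 against 2.22 (-1.35, -1.77 to -0.94). Fezf2 was at 7.89 against 2.20 in the high (-1.81, -2.82 to -0.96), at 4.31 against 4.11 in the middle (-0.07, -0.78 to 0.63) and at 3.79 against 1.46 in the low range (-1.37, -2.16 to -0.60), so the middle range did not show the lower value. High-range cells had the least of this list in both libraries, at 71.6 against 57.5 (-0.31, -0.52 to -0.12). The middle range was at 176 against 322 and the low range at 175 against 239, while Ccl21a cells were at 232 and 253 and Aire cells that were not dividing at 516 and 505. Among high-range cells H2-Ab1 and H2-Eb1 were not higher in the irradiated cells, with log2 ratios of -0.20 and -0.11.

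**Figure D5:**
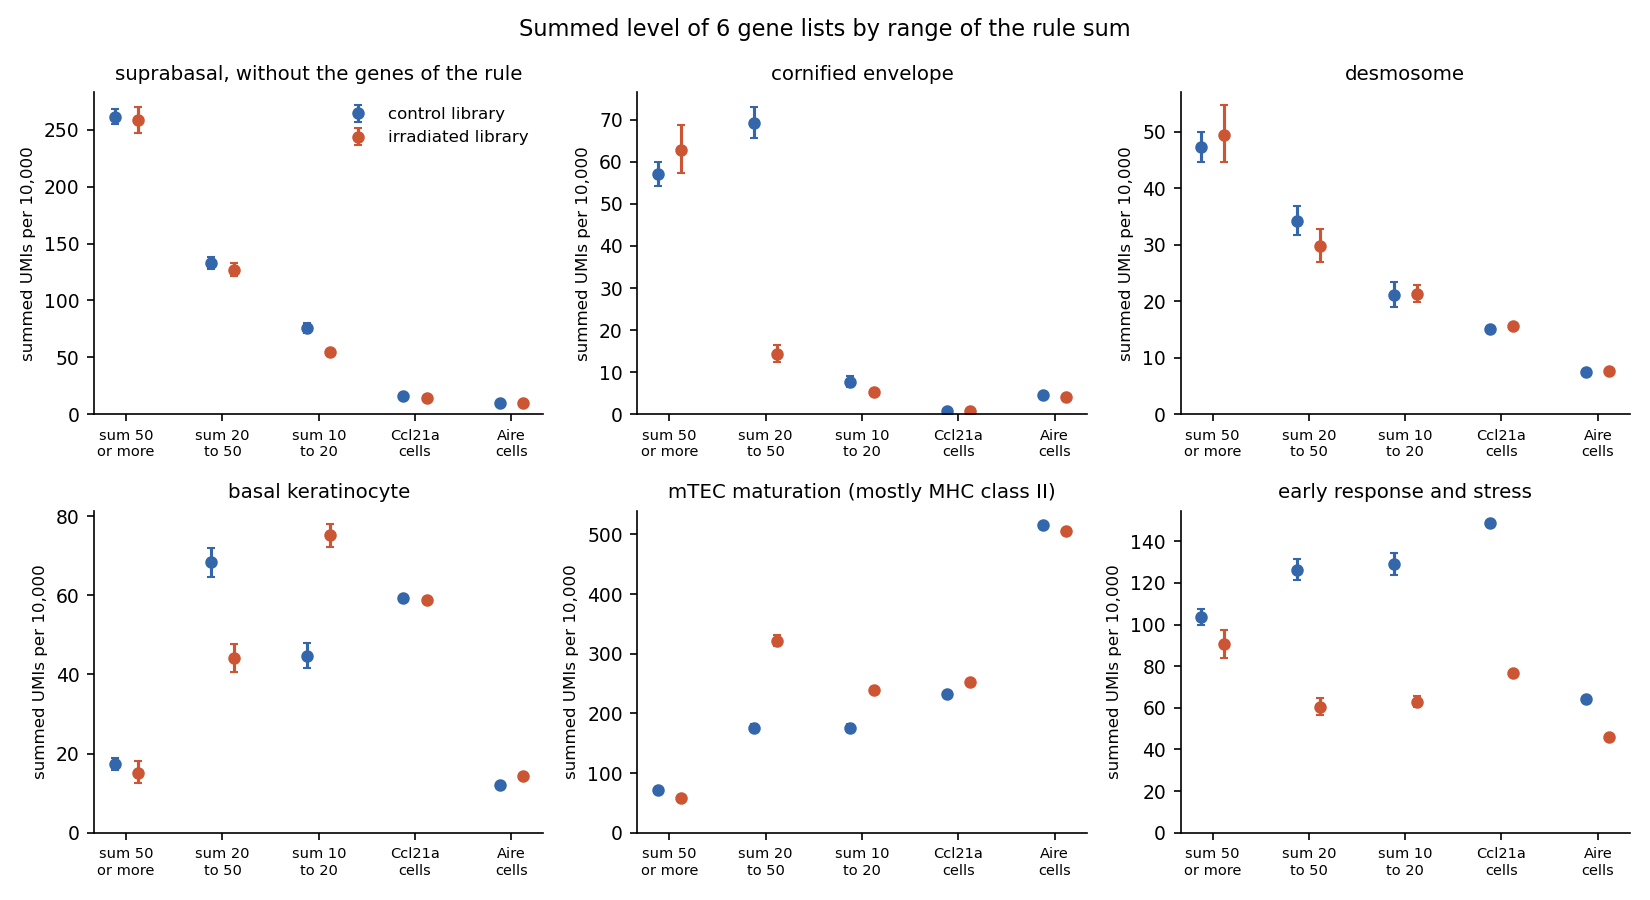
Summed level of 6 gene lists (UMIs per 10000) in keratinocyte-gene cells by range of the rule sum, in Ccl21a cells and in Aire cells of each library; points are levels and bars are 95% intervals by the exact Poisson method. High-range cells of both libraries lie close together in the suprabasal list without the genes of the rule (262 and 259) and the cornified-envelope list (57.1 and 62.8), and the cornified list parts in the middle range (69.2 and 14.3), where the highest of the 12 control cells was at 276 and their median at 17.0.

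Genes of the radiation response were examined because one library came from irradiated mice. The 17 p53 target genes summed to 34.9 against 23.4 in keratinocyte-gene cells beside 17.8 and 17.1 in other cells, and of 7 with at least 100 UMIs, 2 (Trp53inp1 and Btg2) were at least 2-fold lower and 0 at least 2-fold higher. Cdkn1a, the p53-induced inhibitor of the cell cycle that is also made by differentiating keratinocytes, was at 10.7 against 6.46 (-0.72, -0.98 to -0.46), whereas in other kept cells it was at 1.5 and 2.18. By range, Cdkn1a was at 16.2 against 14.0 in the high (-0.21, -0.64 to 0.19), at 9.42 against 5.26 in the middle (-0.84, -1.40 to -0.30) and at 3.50 against 5.25 in the low range (0.58, 0.0039 to 1.19), so its direction turned in the low range. Mdm2, the p53 inhibitor, was at 1.45 against 1.54 (0.09, -0.53 to 0.70) and Phlda3 at 4.05 against 4.47 (0.14, -0.22 to 0.50), and Phlda3 was higher in irradiated cells of the middle range, at 3.81 against 6.91 (0.86, 0.23 to 1.49). By range the list was at 38.7 against 42.5 in the high, 34.7 against 26.2 in the middle and 29.3 against 18 in the low range. The lower sum in irradiated cells was not seen in the high range. In the middle range it was not seen in the medians per cell, 20.8 (highest 149) against 21.0 (highest 80.9). In the low range the medians were 17.2 against 12.0.

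Early response and stress genes were lower in the irradiated library both in the keratinocyte-gene cells, at 118 against 66.2, and in other kept cells, at 98.2 and 54.5. Of 15 with at least 100 UMIs, 6 (Fos, Fosb, Egr1, Atf3, Zfp36 and Dusp1) were at least 2-fold lower and 0 at least 2-fold higher. Of the AP-1 subunits, Fos was at 12.4 against 4.40 in keratinocyte-gene cells and 9.99 and 3.72 in other cells, and Jun at 13.6 against 7.80 and 13.8 and 7.21. Such genes also respond to tissue digestion, and irradiation and the handling of the libraries cannot be told apart here. By range the list was at 129 against 63.0 in the low (-1.03, -1.16 to -0.91, 6 of 13 genes at least 2-fold lower), at 126 against 60.4 in the middle (-1.07, -1.22 to -0.91, 9 of 13) and at 104 against 90.6 in the high range (-0.19, -0.36 to -0.03, 0 of 11).

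Interferon-response genes summed to 24.9 against 35.5 in keratinocyte-gene cells beside 23.3 and 24.5 in other cells, and of 10 with at least 100 UMIs, 1 (Ifit3, at 0.961 against 2.31) was at least 2-fold higher and 0 at least 2-fold lower. By range the list was at 15 against 19.8 in the high (0.40, 0.02 to 0.77), at 29.3 against 28.8 in the middle (-0.02, -0.29 to 0.24) and at 34.9 against 41.7 in the low range (0.26, 0.07 to 0.45), beside a log2 ratio of 0.51 over all ranges. Among epithelial cytokines, Il1f6, an IL-36 cytokine of keratinocytes, was at 3.64 against 0.537 (-2.74, -3.52 to -2.06) and was found in 14 and 8 cells. Il1rn, the antagonist of the IL-1 receptor, was at 1.73 against 1.95 (0.17, -0.38 to 0.72), and Tslp was at 0 in both libraries.

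Across cells, the genes that ranked most like the rule sum were determined in each library as a description, over 44 and 48 cells that share a library. Of 5163 genes found in at least 25% of cells, Dmkn had the highest Spearman coefficient (0.74 in each library), followed by Dsp (0.65 and 0.65), Lypd3 (0.67 and 0.60), Efna3 (0.64 and 0.60), Calm4, Creg1, Krt16, Tmem45a, Gltp and Jup (0.55 and 0.53). The sum did not follow depth (-0.01 and 0.05 with the UMIs of the cell). The most negative were Iigp1, an interferon-induced GTPase (-0.57 and -0.64), mt-Co1 (-0.52 and -0.51), Itga6, the integrin of basal keratinocytes (-0.52 and -0.51), Tmsb10, Tceal9, Ifit3, mt-Atp6, mt-Co3, Flna and mt-Cytb.

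Genes with the most extreme ratios between libraries often rested on single cells. The 10 lowest in irradiated cells were Rbp7, Krt72, Iapp, Cxcl3, Krt15, Slpi, Wfdc2, Gm2a, Chil1 and Pcp4. All 166 control UMIs of Rbp7 came from 1 cell, as did 99.3% of Slpi, 97.2% of Pcp4, 93.1% of Krt72 and 77.7% of Krt15. Wfdc2, a secreted protein of the whey acidic protein family, was at 14.3 against 0.877 (-4.01, -4.55 to -3.53) and was found in 23 and 13 cells. The 10 highest were Lypd8, Fgf21, Vim, Ccl5, C1s1, Cxcl2, Stmn1, Mgp, H2-Oa and Ccl19, and 1 cell held 85.9% of irradiated UMIs of Fgf21, 80.0% of Lypd8 and 67.0% of Cxcl2. Mgp, matrix Gla protein, was at 1.21 against 5.13 (2.07, 1.59 to 2.59) and Ccl19, a chemokine for T cells and dendritic cells, at 0.709 against 2.83 (1.98, 1.34 to 2.68).

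Finally, the share of keratinocyte-gene cells was set beside those of other subsets chosen by their own gene sums. Enterocyte-gene, microfold-gene and tuft-gene cells also had to have Aire under 1 and a sum of Krt10, Krtdap and Sbsn under 10. The other limits of the rule were not set on them and these subsets may overlap, so the shares are of unlike sets. Enterocyte-gene cells were 3.19% against 1.91% of kept cells (log2 ratio -0.74, -1.31 to -0.16), microfold-gene cells 2.44% against 1.5% (-0.70, -1.36 to -0.05) and tuft-gene cells 4.52% against 2.74% (-0.72, -1.20 to -0.24). The log2 ratio of -0.52 (-1.38 to 0.34) for keratinocyte-gene cells lay within the bounds of each, and a difference between the subsets was not tested. Shares are of all kept cells, so they also depend on subsets that were larger in the irradiated library, such as cortical-gene cells at 4.11% against 6.84%.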

How the data were processed

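Single-cell RNA-seq libraries of sorted mouse TECs were analysed from the UMI counts per gene and barcode that the authors deposited. According to the study's methods, reads were trimmed with Fastp and counted with Cell Ranger 5.0.1 on mm10. The matrix headers also name 5.0.1, while the submitters' processing notes list 5.1, and the chemistry is given as v3 in the methods and v2 in the labels. The labels give an age of 9 weeks, and a protocol text 4 weeks.

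The sample titled as irradiated holds the files named as control, and the reverse. Its 4937 barcodes are fewer than the 5070 irradiated cells in the study's account of its results, and the file names give 3233 and 5070 kept cells, the numbers of cells stated in that account, so conditions were taken from the file names. The libraries held 4937 and 7167 barcodes with 58185309 and 82201657 UMIs in all.

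Cells were kept with more than 2000 and fewer than 7500 detected genes, among genes found in at least 5 barcodes, and under 15% mitochondrial UMIs. No doublet caller was run, and the upper limit on genes was the only step against doublets. Levels are summed UMIs per 10000 with exact Poisson 95% intervals, shares have Clopper-Pearson 95% intervals, and the bounds of an irradiated over control log2 ratio pair the low end of one interval with the high end of the other, with 0.5 UMI added to the counts in the ratio itself. PCR and sampling of mice are not covered by these intervals. Genes with at least 100 UMIs over the selected cells were compared, and called meant at least 2-fold. Cells were thinned to 4000 UMIs with a fixed seed. The code for gene levels and ratios was tested on simulated data.

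The cells and the 31 gene lists were chosen with earlier results of these data known. Genes named in the text are those of the lists, the 20 leading genes, the 10 highest and 10 lowest ratios with intervals apart, the keratin, epidermal differentiation complex and Krtdap neighbourhood genes, and the 10 genes ranking most like the rule sum, beside the 10 ranking least like it. Of 32285 gene IDs, 32158 were matched to GENCODE M21 for positions. Alternatives covered lists without genes of the rule or without Tchh, the cell filters, the threshold and limits, thinning, the UMI minimum, the mean over cells and the denominator. Analyses used Python 3.11.15, numpy 2.4.6, scipy 1.17.1, pandas 2.3.3 and matplotlib 3.10.9.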

Additional observations from a re-analysis of the deposited data

How the results depend on the processing

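The log2 ratio of the share of keratinocyte-gene cells, -0.52, lay between -1.28 (threshold of 20) and -0.12 (threshold of 5) when the cell filters, threshold, limits, depth or denominator were changed. The ranges of the rule sum, the set without cells that carried Krtdap alone, the set without the cell richest in a gene and the lists without single genes were chosen after seeing the data. With high-range cells only, the ratio was -1.90. Genes at least 2-fold lower and higher numbered 133 and 70, and 61 and 32 with a threshold of 20, 278 and 142 with a minimum of 50 UMIs, 60 and 33 with a minimum of 200 UMIs, and 28 and 12 in high-range cells, where fewer cells and genes were counted. Of the 133 lower genes, 118 passed again with a threshold of 5, 48 with a threshold of 20 and 9 in the high range. With a threshold of 20 the median log2 ratio of a list was -0.18 for suprabasal, -0.74 for cornified-envelope, -0.025 for barrier, 0.10 for basal, 1.07 for mTEC maturation, -0.036 for Ccl21a and 0.57 for p53 target genes, and Ccl11 was at -0.17. With a threshold of 5, Lypd8 was at -0.31 and H2-Oa at -0.24. With under 10% mitochondrial UMIs the basal median was 0.31. In high-range cells the medians were 0.0069 for suprabasal, -0.039 for cornified-envelope, 0.29 for barrier, -0.48 for basal, -0.35 for activated, 0.22 for desmosome, -0.20 for mTEC maturation, -1.61 for Ccl21a, 0.34 for p53 target and -0.46 for early response genes. There the log2 ratio of Spink5 was 0.17, of Hrnr 0.47, of Krt23 0.51, of Klf4 0.027, of H2-Ab1 -0.20, of H2-Eb1 -0.11, of Btg2 0.34, of Egr1 0.24 and of Pdzk1ip1 0.54. Without the cells that carried Krtdap alone, the medians were -0.95 for cornified-envelope, 0.12 for basal and 1.13 for mTEC maturation genes. Without the cell of each library with most UMIs of the gene, Tchh was at -0.041, Rbp7 at 0.19 and Slpi at 1.49. The cause of these changes was not tested. The median was -0.80 for suprabasal genes without those of the rule (-0.81 with them), 0.78 for the Ccl21a list without Ccl21a (0.81 with it) and -1.43 for cornified-envelope genes without Tchh (-1.39 with it). Of the named genes, the log2 ratio moved beyond its interval in 12 of 157 with levels averaged over cells. It did so in 39 of 157 with a threshold of 5 (2 more reversed) and 56 of 117 with a threshold of 20 (1 more reversed). In the high range it moved in 56 of 78 (9 more reversed). It moved in 31 of 150 without cells that carried Krtdap alone and 19 of 157 without the richest cell (3 more reversed). It moved in 1 of 151 with under 10% mitochondrial UMIs. With mitochondrial and ribosomal protein genes left out of the denominator it moved in 0 of 157. With 1 library per condition no replicate could be left out, and 44 and 48 cells set the precision. No paired analysis was possible because each condition had 1 library and no test was made.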
